A study of Homo sapiens with 18 samples.

Results

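TRAC and TRBC2 encode the constant regions of the T cell receptor alpha chain and of the second of the 2 beta chain isotypes. Both were measured here in HAIR-M, an established human marginal zone lymphoma (MZL) B cell line, and not in T cells. They are 2 of the 60483 gene identifiers in the count files and 2 of the 16122 genes with enough reads to be tested. Both were selected on measured values in these same libraries, namely their read counts in a B cell line and their changes with treatment, next to CD3D, CD3E and CD3G as genes without notable counts. Their levels and changes in the 6 groups are therefore given as a description, with no test.

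The 6 groups were HAIR-M cells given the vehicle DMSO or 5 nM copanlisib, an inhibitor of phosphoinositide 3-kinase (PI3K), for 4, 8 or 12 h. Each group had 3 libraries, 18 in all, and every library came from this single line. The labels do not say whether the replicates were separate cultures, so the spread between them, and any p-value built on it, may be technical. The design asks what copanlisib does to the transcriptome of these cells over time.

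In T cells the alpha and beta chains of the receptor are each assembled from a variable part and a constant part. V(D)J recombination joins the variable part from V and J segments, with a D segment between them in the beta chain. The constant part is encoded by TRAC for the alpha chain and by TRBC1 or TRBC2 for the beta chain. The chains carry no signalling motif of their own and reach the cell surface only with the CD3 chains CD3D, CD3E and CD3G and the zeta chain CD247. B cells assemble immunoglobulin genes in the same way, and a constant gene can also be transcribed from its own locus without a rearranged V segment in front of it. A read on TRAC or TRBC2 in these counts shows RNA of the constant exons and says nothing about a rearranged chain.

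TRBC1 and TRBC2 are near copies, so the sequence decides which reads can be told apart. In GENCODE 29 on GRCh38, TRAC lies at chr14:22547506-22552154 and TRBC2 at chr7:142801041-142802748, both on the plus strand, each with 4 exons; TRBC1 lies at chr7:142791694-142793368, upstream of TRBC2. The first 60 bases of exon 1, all coding, are shown for both beta genes, with capitals at the bases where TRBC1 and TRBC2 differ.
TRBC1 exon 1: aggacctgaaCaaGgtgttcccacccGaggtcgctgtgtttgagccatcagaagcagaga
TRBC2 exon 1: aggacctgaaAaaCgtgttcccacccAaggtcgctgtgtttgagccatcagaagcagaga
Exon 3 of the beta genes is the shared exon with the most differences, and its 107 bases are shown with the same use of capitals.
TRBC1 exon 3: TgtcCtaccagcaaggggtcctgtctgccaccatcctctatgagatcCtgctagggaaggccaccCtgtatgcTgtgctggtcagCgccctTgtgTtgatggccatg
TRBC2 exon 3: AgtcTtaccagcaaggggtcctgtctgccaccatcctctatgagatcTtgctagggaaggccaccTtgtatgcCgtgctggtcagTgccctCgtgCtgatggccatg

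Exon 1 of both beta genes has 387 bases and differs at 7 of them (98.2% identical), exon 2 differs at 2 of 18 bases, and exon 3 at 8 of 107 (92.5% identical). The longest run of identical bases is 173, in exon 1, so a read that falls inside it maps to both genes and was not counted for either. Of the 659 stretches of 100 bases in the TRBC2 transcript, 74 (11.2%) also occur in TRBC1. TRBC1 had 0 reads in all 18 libraries, in a table in which TRBC2 had 11519. A count of 0 allows up to 3 reads per library, which covers counting error only. The TRBC2 count may leave out reads from the shared stretch, and the counts do not show whether any of those came from TRBC1.

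The libraries held 13587017 to 25566761 gene reads, and in each of them 94.3% to 95.3% of stranded gene reads fell in the strand column used here. The B cell identity of the line was visible in CD79A (392 CPM, reads per 1000000 gene reads, mean of 18 libraries), PAX5 (349 CPM) and MS4A1 (267 CPM), and all 18 genes of the B cell marker list passed the filter on low counts. The labels' extraction text speaks of retinas, which goes against the named cell line; the 15 retina markers summed to 8.90 to 14.4 CPM per library, of which PDE6B and NRL were the 2 that passed the filter. The third 4 h copanlisib library stood apart from the first and second. Its chi-square per gene against them was 22.1 and 17.5, a value near 1 meaning sampling noise; no other pair, of 16, passed 3.14, and the closest had 1.56. The first and second had 8.73% and 5.22% unmapped reads, against 1.74% to 2.82% in the other 16 libraries. Values at 4 h are therefore also given with the third library as the only copanlisib library of that time, its spread then being taken from the other groups.

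TRAC was present in every library, with 528 to 1007 reads, and its level moved little between groups. In DMSO the 3 libraries held 39.1, 40.0 and 40.4 CPM at 4 h (39.8 ± 0.68, mean ± SD, n = 3), 40.1, 39.2 and 40.8 CPM at 8 h (40.0 ± 0.82) and 40.9, 42.6 and 44.0 CPM at 12 h (42.5 ± 1.56). With copanlisib they held 32.7, 33.6 and 39.8 CPM at 4 h (35.3 ± 3.84), 39.0, 41.3 and 38.1 CPM at 8 h (39.5 ± 1.64) and 39.2, 38.8 and 36.5 CPM at 12 h (38.2 ± 1.43). The copanlisib and DMSO libraries overlapped at 4 h and at 8 h, while at 12 h all 3 copanlisib libraries lay below all 3 DMSO libraries. CPM here are scaled by TMM, which corrects library sizes for differences in composition. The summed CPM of gene lists, given above and below, are without that scaling. In bulk RNA, here and below, fewer cells with a transcript and less of it per cell cannot be told apart.

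The differences of TRAC between copanlisib and DMSO were small. The log2 fold change was -0.17 ± 0.07 (SE) at 4 h, -0.02 ± 0.06 at 8 h and -0.16 ± 0.07 at 12 h, the last a level 1.11-fold lower than in DMSO. The low 4 h mean came from the first and second libraries, those with the many unmapped reads. With the third as the only copanlisib library of 4 h, the log2 fold change there was -0.00079 ± 0.07. Counting error alone gives 3.15% to 4.35% per library for TRAC. In DMSO the level at 12 h exceeded that at 4 h by 0.09 ± 0.07 on the log2 scale.

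Ranked by mean level, TRAC rose in the order copanlisib 4 h, copanlisib 12 h, copanlisib 8 h, DMSO 4 h, DMSO 8 h and DMSO 12 h. Of the 5 neighbouring pairs in that order, only DMSO 8 h and DMSO 12 h did not overlap. Without TMM scaling those 2 overlapped, and copanlisib 12 h and 8 h did not. The order of the TRAC groups thus rests on gaps of 0.219 to 2.80 CPM, close to the spread between replicates.

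TRBC2 was also present in every library, with 348 to 1078 reads, and its copanlisib libraries lay above its DMSO libraries at each time. In DMSO the libraries held 25.8, 28.4 and 30.2 CPM at 4 h (28.1 ± 2.22), 25.8, 23.7 and 26.6 CPM at 8 h (25.3 ± 1.45) and 24.8, 23.5 and 26.7 CPM at 12 h (25.0 ± 1.59). With copanlisib they held 32.4, 36.1 and 32.8 CPM at 4 h (33.8 ± 2.02), 41.3, 43.2 and 40.8 CPM at 8 h (41.8 ± 1.25) and 43.0, 48.3 and 43.8 CPM at 12 h (45.1 ± 2.87). At each of the 3 times every copanlisib library lay above every DMSO library, and the lowest copanlisib library of all, at 32.4 CPM, lay above the highest DMSO library, at 30.2 CPM.

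**Figure D1:**
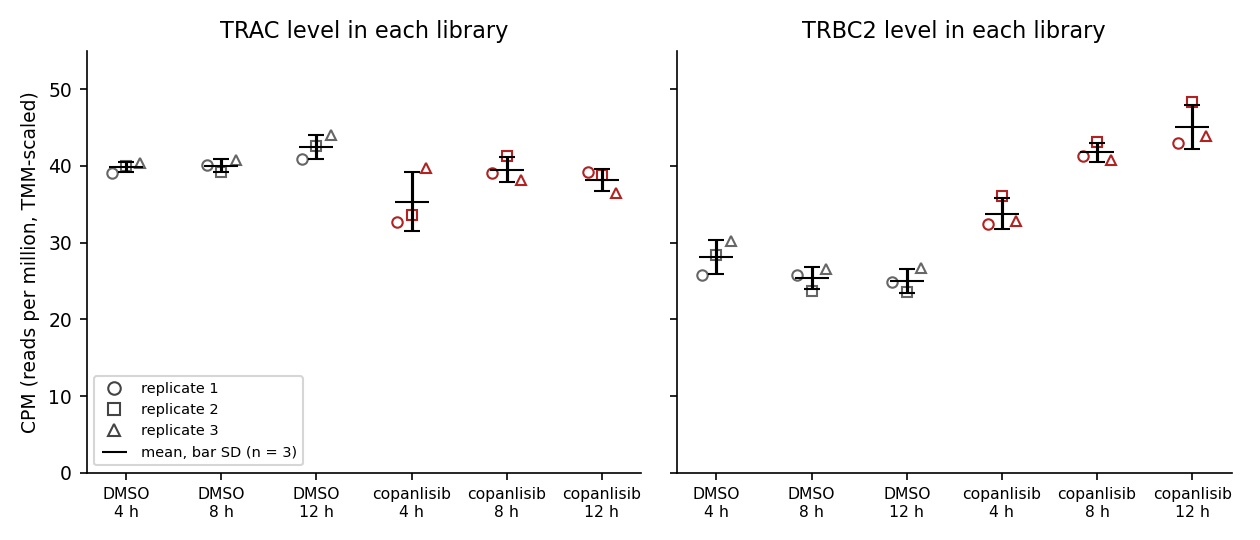
Levels of TRAC (left) and TRBC2 (right) in each of the 18 libraries, in TMM-scaled CPM on an axis from 0; open symbols are libraries by replicate number, horizontal marks are group means and bars SD (n = 3). TRAC stays between 32.7 and 44.0 CPM, while the TRBC2 libraries lie at 23.5 to 30.2 CPM in DMSO and at 32.4 to 48.3 CPM with copanlisib.

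The log2 fold change of TRBC2 was 0.26 ± 0.07 (SE) at 4 h, 0.72 ± 0.07 at 8 h and 0.85 ± 0.07 at 12 h, or 1.20-fold, 1.65-fold and 1.80-fold. For comparison, 17.7% of all 16122 genes tested were higher with copanlisib at 4 h and 20.7% lower by edgeR's quasi-likelihood test at an adjusted p under 0.05. The shares were 14.8% higher and 18.3% lower at 8 h, and 13.8% higher and 16.5% lower at 12 h. Since TRBC2 was selected on these contrasts, nothing is read from its place among them. With the third library as the only copanlisib library of 4 h, its log2 fold change at 4 h was 0.22 ± 0.09.

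Over time the 2 treatments ran apart for TRBC2. The drug effect was larger at 12 h than at 4 h by 0.59 ± 0.10 on the log2 scale, where 8.98% of all genes tested had a significantly higher and 7.69% a significantly lower effect at 12 h. The copanlisib level at 12 h was 1.33 times that at 4 h. The DMSO level at 12 h was 0.889 times that at 4 h (log2 fold change -0.17 ± 0.07), with overlapping libraries; in that comparison 23.2% of all genes tested were higher and 25.4% lower. The order of the group means was DMSO 12 h, DMSO 8 h, DMSO 4 h, copanlisib 4 h, copanlisib 8 h and copanlisib 12 h. DMSO 4 h and copanlisib 4 h did not overlap, nor did copanlisib 4 h and 8 h, with or without TMM scaling. The other 3 neighbouring pairs overlapped.

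The ratio of TRBC2 to TRAC reads within a library needs no scaling between libraries. It was 0.706 ± 0.044 in DMSO at 4 h (SD, n = 3), 0.633 ± 0.024 at 8 h and 0.588 ± 0.031 at 12 h. With copanlisib it was 0.964 ± 0.127 at 4 h, 1.06 ± 0.013 at 8 h and 1.18 ± 0.077 at 12 h. TRAC thus gave more reads than TRBC2 in all 9 DMSO libraries, and TRBC2 gave more than TRAC in all 6 copanlisib libraries of 8 h and 12 h. At 4 h the copanlisib libraries spread from 0.826 to 1.08, all above the highest DMSO ratio of that time, 0.747.

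**Figure D2:**
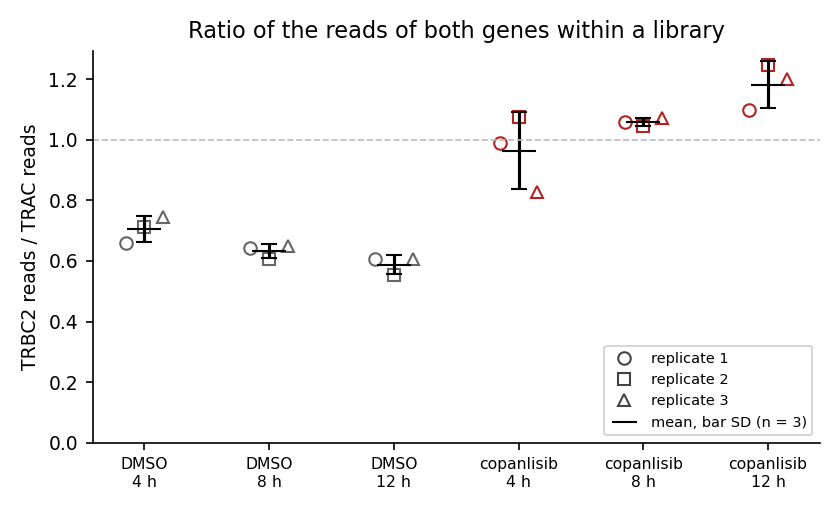
TRBC2 reads divided by TRAC reads in each library, on an axis from 0 with a dashed line at 1; symbols are libraries by replicate number, horizontal marks are means and bars SD (n = 3). The DMSO libraries lie at or below 0.747, and the copanlisib libraries of 8 h and 12 h lie above 1.

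Per kilobase of exon, the scale on which genes can be compared, the mean level over 18 libraries was 40.2 CPM per kb for TRAC and 43.8 CPM per kb for TRBC2. The length was that of all annotated exons of a gene together. For TRAC and TRBC2 it equals the transcript length, 976 and 758 bases. In a gene with several transcripts it can exceed the length of each, which lowers the value per kilobase. Of the 16004 tested genes with an exon length, 94.0% had a lower level than TRAC and 94.5% a lower level than TRBC2. Among B cell genes, PAX5, a B lineage transcription factor, had 37.4 CPM per kb. CD79A, a signalling chain of the B cell receptor, had 261 CPM per kb. In this mean over all libraries, both T cell receptor constant genes lay near PAX5 and below CD79A per kilobase.

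The CD3 chains, with which the receptor is assembled, were at or near 0. CD3D and CD3G had 0 reads in all 18 libraries. CD3E had 42 reads in all (exact 95% Poisson interval 30.3 to 56.8, counting error only), 0 to 7 per library, in 17 libraries. For each CD3E read there were 318 TRAC reads (95% interval 235 to 442) and 274 TRBC2 reads (203 to 381). Against the limit of 3 reads that a count of 0 allows, TRAC was at least 176-fold higher than CD3D and CD3G in every library, and TRBC2 at least 116-fold higher, per library and not per length. CD247, the zeta chain, passed the filter at 0.35 CPM. With all 18 libraries fitted it was not called in any of the 5 comparisons, its adjusted p in edgeR lying between 0.098 and 0.77.

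The other T cell receptor constant genes were also nearly silent. TRDC, of the delta chain, had 37 sense reads in 14 libraries and 7 reads on the opposite strand. TRGC1 and TRGC2, of the gamma chain, had 0 reads and 1 read. Of the 6 constant genes, TRAC and TRBC2 were the 2 that passed the filter on low counts. TRAC had 11 reads on the opposite strand beside its 13368 sense reads, and TRBC2 had 15 beside 11519, so the reads of both came from the coding strand.

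**Figure D3:**
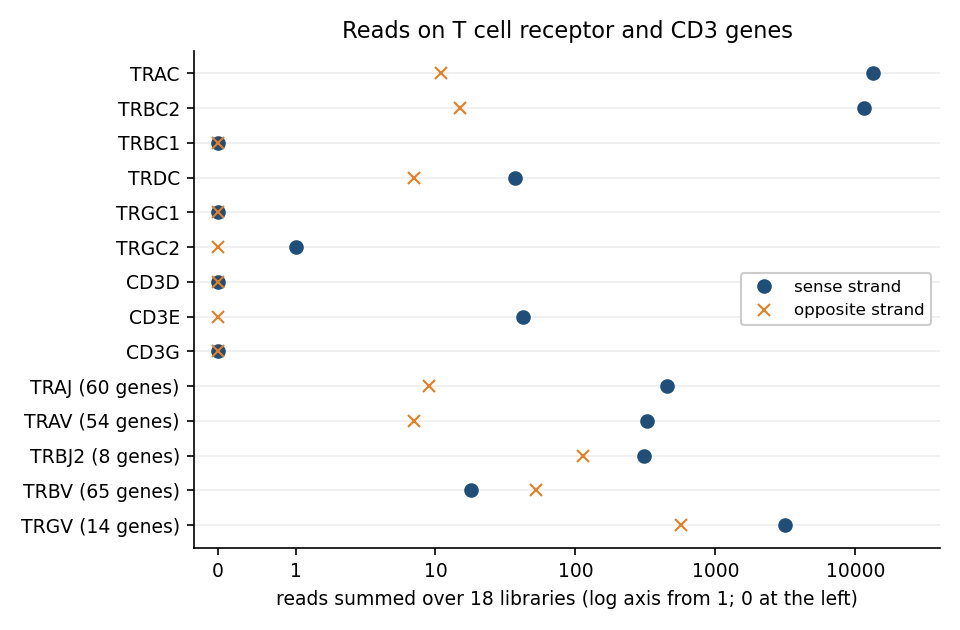
Reads summed over 18 libraries on T cell receptor constant genes, CD3 chains and classes of T cell receptor segments, on a log axis from 1 with 0 at the left; circles are the sense strand and crosses the opposite strand. TRAC and TRBC2 lie at 13368 and 11519 sense reads, the CD3 chains and other constant genes at 42 or fewer, and the TRAJ, TRAV, TRBJ2 and TRGV segments in between.

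Several markers that define T cells were at or near 0, while others, and several genes known from T cells, were expressed. CD8A had 2 reads, CD8B and CD28 had 0, CD2 had 4, TRAT1 had 2, CTLA4 had 8, ICOS had 37 and IL7R had 38 in all 18 libraries together. The co-receptor CD4 had 1292 reads (3.79 CPM, 2.72 to 4.99 per library), and CD7, CD6 and CD5 passed the filter at 9.35, 1.74 and 0.44 CPM. CD4 was not called with copanlisib at any time (adjusted p 0.081, 0.86 and 0.65, edgeR) and rose in DMSO from 4 h to 12 h by log2 0.68 ± 0.15 (adjusted p 0.00035). Of the 19 genes of the T cell marker list, 14 passed the filter, led by CD27, a receptor also found on memory B cells (115 CPM), and THEMIS, a T cell selection factor (104 CPM). Without TMM scaling, the list summed to 258 to 273 CPM in DMSO at 4 h, 320 to 341 at 8 h and 379 to 383 at 12 h. With copanlisib it summed to 307 to 319, 386 to 393 and 471 to 483 CPM. This sum, unlike TRAC, was higher with copanlisib at each time and higher at later times in both treatments. Of the 14 tested genes, 3, 6 and 5 rose with copanlisib at the 3 times, or 21.4%, 42.9% and 35.7%, beside 17.7%, 14.8% and 13.8% of all genes tested, so the count at 4 h was near the background. The genes that fell numbered 0, 0 and 1. The list's median log2 fold change was 0.23, 0.23 and 0.29, against 0.01, 0.02 and 0.00 over all genes tested. With the third library alone at 4 h, 4 rose and 0 fell.

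Among the T cell markers that changed with copanlisib were CD96, a receptor of T and NK cells, MAL, a membrane trafficking protein, and UBASH3A, a negative regulator of receptor signalling. CD96 rose at all 3 times, by log2 1.37 ± 0.29 (SE), 1.28 ± 0.26 and 1.17 ± 0.22 (adjusted p 0.00043, 0.0003 and 0.00016, edgeR). MAL rose by 0.59 ± 0.12 at 8 h and 0.95 ± 0.11 at 12 h (adjusted p 0.00035 and 1.4e-07), and UBASH3A by 1.02 ± 0.23 at 8 h (adjusted p 0.0011). CD27 rose by 0.38 ± 0.06 and 0.47 ± 0.06 at 8 h and 12 h (adjusted p 2.1e-05 and 1.2e-06). Of the 21 NK and cytotoxic markers, 8 passed the filter, and 0 rose and 4, 4 and 5 fell at the 3 times, beside 20.7%, 18.3% and 16.5% of all genes tested; with the third library alone at 4 h, 2 fell. Among them XCL1, a chemokine, fell by 2.11 ± 0.07, 2.23 ± 0.08 and 2.37 ± 0.08 (adjusted p 8.8e-17, 3.1e-17 and 5.1e-18). Of 15 myeloid markers, 6 passed the filter, and their list summed to 101 to 157 CPM, carried by VCAN (108 CPM). Whether cells of another type contributed to the TRAC and TRBC2 values was not tested.

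**Figure D4:**
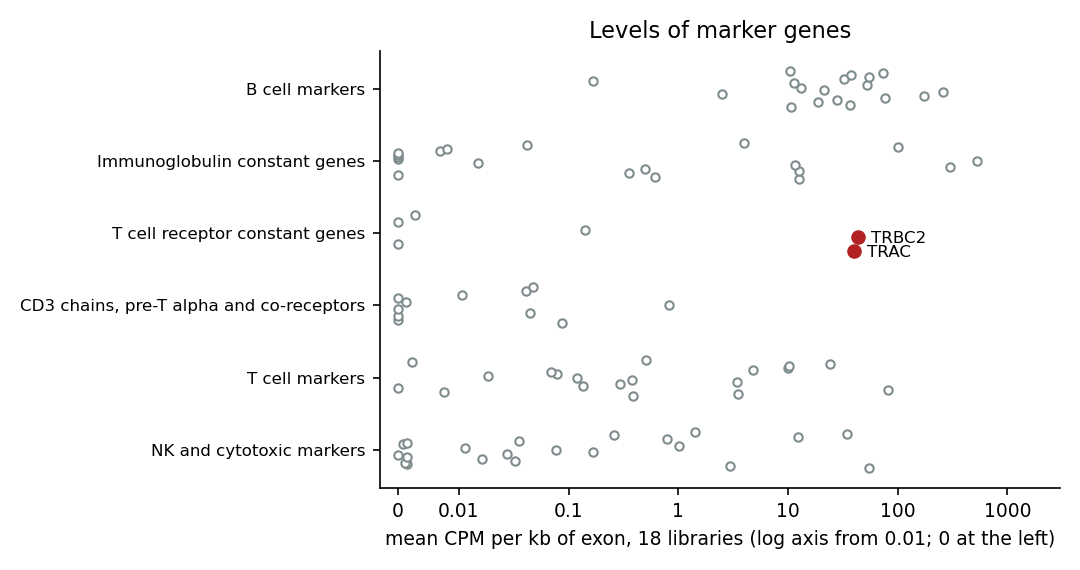
Mean CPM per kb of exon over 18 libraries for each gene of 6 lists, on a log axis from 0.01 with 0 at the left; each open circle is a gene, and TRAC and TRBC2 are filled. TRAC and TRBC2, at 40.2 and 43.8, lie within the range of the B cell markers, and the CD3 chains and co-receptors lie below 1.

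Segments of the T cell receptor loci carried few reads. Of 216 V, D and J genes, 81 had a read, with 4259 sense and 749 opposite-strand reads in all. Upstream of TRAC, the 60 J segments (TRAJ) had 452 sense and 9 opposite-strand reads in 44 genes, and the 54 V segments (TRAV) had 326, of which 214 lay on TRAV26-2. Upstream of TRBC2, the 8 J segments of its own cluster (TRBJ2) had 310 sense and 114 opposite-strand reads, of which 208 sense reads lay on TRBJ2-3. The 65 beta V segments (TRBV) had 18 sense and 52 opposite-strand reads. V segments of the gamma locus (TRGV) had 3152 sense reads, 2438 of them on TRGV5, although the gamma constant genes had at most 1. Together the alpha V and J segments had 778 sense reads beside 13368 on TRAC, and all beta segments 328 beside 11519 on TRBC2. A count table does not show which segments, if any, were joined.

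By group, the TRBJ2 reads summed to 29, 45 and 46 in DMSO at 4, 8 and 12 h and to 40, 91 and 59 with copanlisib. As levels these were 0.554 ± 0.089, 0.845 ± 0.182 and 0.868 ± 0.381 CPM (SD, n = 3) and 0.679 ± 0.381, 1.28 ± 0.075 and 1.10 ± 0.167 CPM. The TRAJ reads summed to 55, 61 and 76 in DMSO and to 95, 108 and 57 with copanlisib. At these depths each library held 5 to 40 reads of either class. Of the segments, 5 passed the filter, namely TRGV5, TRGV3, TRGV4, TRAV26-2 and TRBJ2-3, and in edgeR's test 0 of them were called in any of the 5 comparisons.

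The genes beside each constant gene were compared, since they share its part of the chromosome. Downstream of TRAC on the opposite strand, 12.8 kb away, lies DAD1, a subunit of the oligosaccharyltransferase, which was at 99.4 ± 1.40 CPM in DMSO and 85.6 ± 8.14 CPM with copanlisib at 4 h. At 8 h it was at 114 ± 1.37 and 89.7 ± 1.09 CPM, and at 12 h at 124 ± 8.85 and 101 ± 3.93 CPM. It fell with copanlisib at all 3 times, by log2 0.22 ± 0.06, 0.34 ± 0.06 and 0.30 ± 0.06 (adjusted p 0.0042, 3.6e-05 and 0.00017). With the third library alone at 4 h its log2 fold change was -0.06 (adjusted p 0.52). ABHD4, a lipase 46.1 kb downstream of TRAC, had log2 fold changes of 0.16, 0.14 and -0.09 (adjusted p 0.029, 0.067 and 0.25). The call at 4 h was lost without any 1 of 5 of the 6 libraries of that time. The olfactory receptor genes OR4E1, OR4E2, OR10G2 and OR6J1 around the locus had 0 reads.

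Both tested neighbours of TRBC2 were higher with copanlisib at 8 h and 12 h, from low levels. PRSS2, a trypsinogen gene 26.5 kb upstream inside the beta locus, had 284 reads in all. Its level was 0.421 ± 0.164 CPM in DMSO and 1.12 ± 0.287 with copanlisib at 8 h, and 0.583 ± 0.126 and 1.55 ± 0.303 CPM at 12 h. It rose by log2 1.30 ± 0.33 and 1.40 ± 0.30 (adjusted p 0.0029 and 0.00068), while at 4 h its log2 fold change was 0.00 ± 0.35 (adjusted p 1). PRSS2 has near-identical copies, so its count is uncertain.

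EPHB6, an ephrin receptor gene 52.3 kb downstream of TRBC2, had 637 reads in all. Its level was 1.14 ± 0.047 CPM in DMSO and 2.84 ± 0.479 with copanlisib at 8 h, and 1.38 ± 0.158 and 3.00 ± 0.614 CPM at 12 h. It rose by log2 1.32 ± 0.28 and 1.13 ± 0.27 (adjusted p 0.00058 and 0.0023). At 4 h the copanlisib libraries were widely spread, at 0.485, 1.49 and 2.13 CPM, with a log2 fold change of 0.32 ± 0.33 (adjusted p 0.48). It was 0.97 with the third library alone (adjusted p 0.022). PRSS1, MTRNR2L6, TRPV6 and TRPV5 near TRBC2 had 3, 15, 34 and 11 reads and were not tested. The calls of PRSS2 and EPHB6 at 8 h and 12 h held under each alternative run, listed at the end.

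The constant genes of the B cell's own receptor were read beside those of the T cell receptor. The line expressed IGHG3 (867 CPM, mean of 18 libraries) and IGKC (275 CPM), with 10 reads on IGHM and 0 on IGLC1, IGLC2, IGLC3 and IGLC7. Of the 19 genes of the immunoglobulin list, which also holds JCHAIN and the surrogate light chain genes, 10 passed the filter. With copanlisib 3, 10 and 9 of these rose at the 3 times, beside 17.7%, 14.8% and 13.8% of all genes tested, and 0 fell at any of them. The median log2 fold change was 0.19, 0.66 and 0.88, beside 0.26, 0.72 and 0.85 for TRBC2 and -0.17, -0.02 and -0.16 for TRAC. With the third library alone at 4 h the count there was also 3 and 0. In DMSO between 4 h and 12 h, 0 of the 10 rose and 7 fell (median -0.61), beside 23.2% and 25.4% of all genes tested. In 7 of the 10 the drug effect was higher at 12 h than at 4 h, and in 0 lower, beside 8.98% and 7.69% of all genes tested. The median difference was 0.74 on the log2 scale, and 0.59 with the third library alone at 4 h.

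IGHG3 was at 895 ± 9.37, 817 ± 24.4 and 503 ± 5.74 CPM in DMSO at 4, 8 and 12 h and at 991 ± 83.7, 1120 ± 2.24 and 878 ± 8.03 CPM with copanlisib. It rose by log2 0.15 ± 0.04, 0.46 ± 0.04 and 0.80 ± 0.04 (adjusted p 0.01, 9.1e-09 and 5.1e-13), the first lost without the third 4 h copanlisib library (0.08, adjusted p 0.063). IGKC had log2 fold changes of 0.03 ± 0.04, 0.35 ± 0.04 and 0.61 ± 0.04 (adjusted p 0.64, 1.3e-07 and 1.3e-11). In DMSO the fall of IGHG3 by 0.83 from 4 h to 12 h stood beside a difference of -0.17 in TRBC2. The IGHG and IGHA genes are near copies of each other, so the split of reads between them is uncertain. These lists share their libraries with TRBC2, and no relation between the genes was tested.

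**Figure D5:**
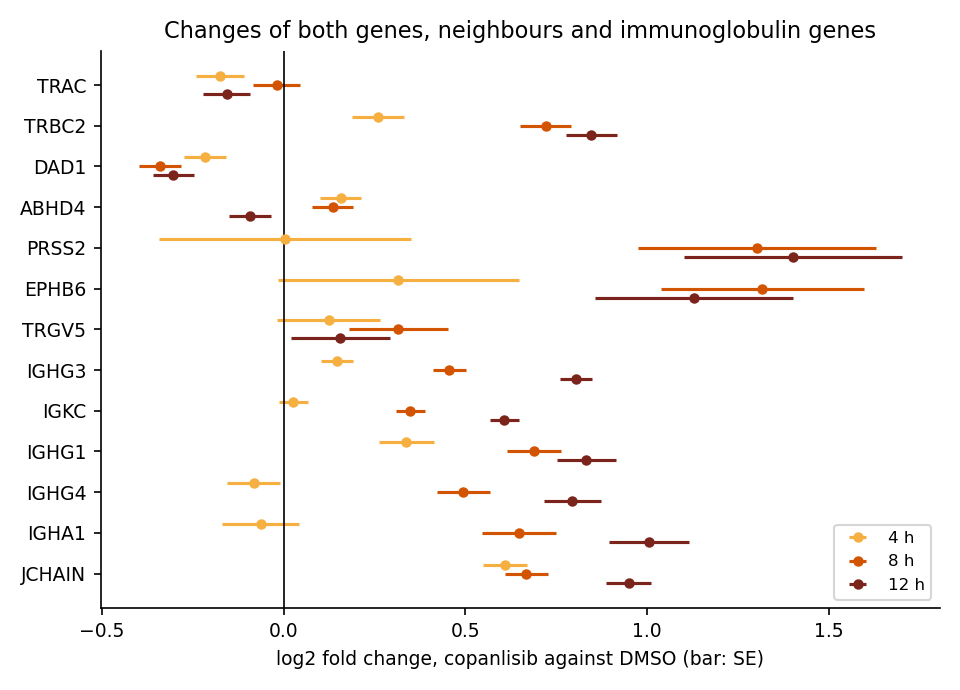
Log2 fold change of copanlisib against DMSO at 4, 8 and 12 h (points, by colour; bars are SE) for TRAC and TRBC2, genes beside them (DAD1, ABHD4, PRSS2, EPHB6), TRGV5 and 6 immunoglobulin genes. TRAC lies between -0.17 and -0.02 and TRBC2 between 0.26 and 0.85.

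Among factors that bind the T cell receptor loci or set T cell identity, 31 of 33 listed genes were tested. With copanlisib 14, 11 and 10 rose at the 3 times, or 45.2%, 35.5% and 32.3%, beside 17.7%, 14.8% and 13.8% of all genes tested. In the other direction 5, 1 and 1 fell, or 16.1%, 3.23% and 3.23%, beside 20.7%, 18.3% and 16.5%. The median log2 fold changes were 0.14, 0.04 and 0.07. At 4 h, 11 rose and 3 fell with the third library alone. ETS1, known to bind the alpha and beta enhancers, rose by log2 0.76 ± 0.05, 0.59 ± 0.05 and 0.50 ± 0.05 (adjusted p 1.8e-11, 1.4e-09 and 3.6e-08). TCF3, an E protein, rose by 0.47 ± 0.06 at 8 h and 0.52 ± 0.06 at 12 h (adjusted p 3.1e-07 and 6.8e-08), and at 4 h its value depended on the library, as given at the end.

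SATB1, a chromatin organizer of T cells, rose from a low level (0.79 CPM, mean of 18 libraries) by 2.08 ± 0.40 and 2.39 ± 0.35 at 8 h and 12 h (adjusted p 0.00017 and 5.7e-06). GATA3, a T cell factor, was at 0.53 CPM and rose by 1.03 ± 0.37 and 1.93 ± 0.40 at those times (adjusted p 0.035 and 0.00054). The 8 h call of GATA3 was lost with DESeq2 (adjusted p 0.1), with limma-voom (0.051), with no filter on low counts (0.063) and without any 1 of 4 libraries. TCF7 and RUNX3, both T cell factors, were at 518 and 575 CPM, while RUNX1 was at 0.07 CPM. TCF7 rose by log2 0.28 ± 0.04 at 8 h and 0.42 ± 0.04 at 12 h (adjusted p 4.2e-06 and 7.6e-09, edgeR). It was not called at 4 h (0.03 ± 0.04, adjusted p 0.61). Among the factors that fell at 4 h were RUNX3 and ZBTB7B, with log2 fold changes of -0.35 ± 0.05 and -0.41 ± 0.08 (adjusted p 1.2e-05 and 0.00027, edgeR). RUNX3 was then at 463 ± 60.2 CPM with copanlisib and 592 ± 7.03 CPM in DMSO, and ZBTB7B at 37.4 ± 7.26 and 49.5 ± 0.43 CPM. The copanlisib libraries of 4 h thus spread widely in both genes, and the changes with the third library alone are not given here. Neither gene was called at 8 h (adjusted p 0.7 and 0.58, edgeR) or at 12 h (0.14 and 0.21).

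Of the 30 genes of proximal T cell receptor signalling, 27 were tested. With copanlisib 5, 4 and 3 rose at the 3 times, or 18.5%, 14.8% and 11.1%, and 6, 5 and 8 fell, or 22.2%, 18.5% and 29.6%. At 4 h and 8 h these shares were near those of all genes tested (17.7% and 14.8% higher, 20.7% and 18.3% lower), and at 12 h the shares of all genes were 13.8% and 16.5%. The median log2 fold changes were 0.02, -0.01 and -0.02. At 4 h with the third library alone, 5 rose and 3 fell. The T cell kinases LCK and ZAP70 were at 2.27 and 0.64 CPM. SYK, the counterpart of ZAP70 in B cells, was at 57.9 CPM. LCK fell by log2 0.61 ± 0.19 at 8 h and 0.80 ± 0.18 at 12 h (adjusted p 0.013 and 0.0011). The 8 h call was lost without the third copanlisib library of that time (adjusted p 0.066) or without the first DMSO library (0.052). SYK rose by 0.38 ± 0.05, 0.40 ± 0.05 and 0.37 ± 0.05 (adjusted p 2.6e-06, 7.2e-07 and 1.7e-06).

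Of the 16 genes of V(D)J recombination and end joining, 13 were tested, of which 5, 3 and 3 rose at the 3 times and 1, 3 and 3 fell; with the third library alone at 4 h, 3 rose and 2 fell. At 8 h and 12 h this was 23.1% in each direction, beside 14.8% and 13.8% of all genes tested that were higher and 18.3% and 16.5% that were lower, which for 13 genes is near the background. At 4 h it was 38.5% higher and 7.69% lower, beside 17.7% and 20.7%. The recombinase genes were low, RAG1 at 0.83 CPM and RAG2 at 0.01 CPM, and so was DNTT, the template-independent polymerase, at 0.09 CPM.

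The genes whose pattern over the 6 groups was nearest to that of TRBC2 depended on how low levels were treated. Likeness was the root mean square difference of the group means of log2(CPM + 0.5), with each gene centred on its own mean, among 12704 tested protein-coding genes. It ranked PECAM1, NSUN7, ANKRD6, UPB1 and GATA3 first, at 0.05 for PECAM1 and 0.08 for the other 4, where TRBC2 itself varied by 0.33 around its mean. The added 0.5 CPM shrinks the changes of genes near that level, as PECAM1 (1.04 CPM) and GATA3 (0.53 CPM) are. With no pseudocount, a setting chosen after seeing the data, 1 of the 5 remained, UPB1, at rank 2 and 9.53 CPM. PECAM1 then ranked 14 and GATA3 6292, and the first 5 were BCL2L14, UPB1, LMNTD2, CDK5R2 and CHST12. UPB1, an enzyme of pyrimidine breakdown, had geometric mean levels of 8.68, 7.40 and 7.62 CPM in DMSO at 4, 8 and 12 h and 9.10, 11.3 and 13.05 CPM with copanlisib.

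For TRAC the 5 nearest genes were MDH2, CCDC157, UBL4A, NME4 and PLCB3, at 0.02 to 0.03, and 4 of them remained with no pseudocount, CCDC157 falling to rank 19. TRAC varied by only 0.08 around its mean, so a gene that hardly moved would also be near it. These rankings are descriptions over 6 group means and carry no test.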

How the data were processed

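Each library was deposited as a table of raw read counts per gene; CASAVA 1.7, the aligner STAR 2.5.2b and the build hg38 are named, per the submitters' processing notes. For the annotation's version, none is given in the sources used here. The kit in the labels does not mark strand, but 1 strand column held at least 94.3% of stranded gene reads and was used. Reads mapping to several places (9.21% to 10.1%) were not counted. A gene name table named 56321 identifiers and GENCODE 29 another 432, and 3730 had no name.

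Genes were filtered with filterByExpr, scaled by TMM and fitted with 1 mean per group in edgeR 4.0.16 (R 4.3.3) by the quasi-likelihood test, two-sided, adjusted by Benjamini-Hochberg over 16122 genes at 0.05. The 5 contrasts were copanlisib against DMSO at 3 times, DMSO at 12 h against 4 h, and the difference of the drug effects. limma 3.58.1 and DESeq2 1.42.0 served as alternatives. Likeness used log2 of CPM plus 0.5. The fit was tested on simulated data. The members and lists were chosen with earlier results of these data known. Named were the members, their neighbours, fixed genes and, per list and contrast, up to 4 called genes with the largest change. Some items are not reported here.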

Additional observations from a re-analysis of the deposited data

Results flagged for a closer look

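The drug effect differed between 12 h and 4 h, by edgeR's interaction contrast, in 29 of the named genes reported here, given as the log2 effect at 12 h minus that at 4 h. Of the immunoglobulin list these were IGHA1 (1.07), IGHG4 (0.877), VPREB3 (0.797) and IGHG3 (0.658). Among B cell markers they were SPIB (1.14), CD79B (0.792), CD79A (0.518) and CD40 (0.463). Among T and NK cell markers they were MAL (0.828), CD27 (0.348), CCL5 (-0.273) and CST7 (-1.06). Among factors of the T cell receptor loci they were SATB1 (1.75), TCF3 (0.521), RUNX3 (0.462), ETS1 (-0.261) and MYB (-0.438). Among signalling genes they were GRAP (0.451), TEC (-0.333), PTPRC (-0.39) and PTPN22 (-0.424). Among recombination genes they were PAXX (0.416), XRCC5 (-0.224), PRKDC (-0.233) and DCLRE1C (-0.398). The myeloid markers S100A9 (2.22) and VCAN (-0.333), PRSS2 beside TRBC2 (1.4) and ABHD4 beside TRAC (-0.249) complete the set. Of these 29 calls, 14 were lost when some single library of the 12 involved was left out. They were PAXX (11 of the 12 libraries), DCLRE1C (9), ABHD4, PRSS2 and VPREB3 (8 each), CCL5 and CST7 (7 each), GRAP (5), PTPN22, SATB1 and XRCC5 (4 each), VCAN (2), and ETS1 and PRKDC (1 each). With the third 4 h copanlisib library alone, 15 were lost: CD27, TEC and all of these 14 but ABHD4. The other 13 calls held under both.

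Reads on the opposite strand, which the levels above do not use, exceeded the highest DMSO group sum of 1 read in 4 cases. TRAC had 4 such reads in the 3 copanlisib libraries of 4 h and 5 in those of 12 h. TRBC2 had 11 in the copanlisib libraries of 4 h and 2 in those of 8 h. At 4 h all 4 of TRAC and 9 of the 11 of TRBC2 came from copanlisib replicate 1, the library with 8.73% unmapped reads and the lowest share of reads in the strand column (94.3%). Without it the counts were 0 and 2.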

How the results depend on the processing

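Other settings were DESeq2 size factors, no filter, DESeq2, limma-voom, counts without strand, a replicate block, only 1 time's libraries, and each library left out. Genes called at 4 h numbered 6195, but 3733 with only that time's libraries and 3778 with the third copanlisib library alone, where TRAC moved to -0.00079. The difference of the drug effects had 2688 calls, but 900 with that library alone. With a replicate block the counts were 6206, 5301 and 4887 at the 3 times, 7860 in DMSO and 2763 for the difference. TRBC2 then stayed at 0.26, 0.72 and 0.85. Of 45 same-numbered pairs of libraries, 2 correlated above 0.1 in their deviations from the group means (median 0.00194). Differently numbered pairs were not compared, so this cannot show whether equal numbers mark a shared culture or batch.

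Leaving out 1 library gave 4903 to 7857, 4312 to 4501 and 3909 to 4135 calls at the 3 times, 6928 to 7207 in DMSO and 1596 to 5781 for the difference. The last moved by over 1.5 times without copanlisib replicate 1 (1741), 2 (1596) or 3 (5781) of 4 h, DMSO replicate 1 of 12 h (1742) or DMSO replicate 3 of 4 h (1687). TRAC ranged from -0.267 to -0.128, -0.0496 to -0.00055 and -0.185 to -0.127, and TRBC2 from 0.205 to 0.311, 0.676 to 0.750 and 0.794 to 0.896. At 4 h CD79A turned from -0.01 to 0.144 with the third library alone (adjusted p 0.026), and TCF3 from 0.00 to -0.105 without it (adjusted p 0.019), its range being -0.105 to 0.0636. The causes were not tested. For single genes and levels, 2926 other values kept their side, 208 lost the call, 19 gained it and 3 moved. Low-count neighbours and segments are limited by depth.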
